A study of Mus musculus with 8 samples.

Results

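Eomes, Neurog2, Insm1, Gadd45g, Btg2 and Mfap4 are 6 genes linked to the step at which cortical progenitors commit to making neurons. They were taken by symbol, and all 6 were found among the 14166 genes of the count tables. Nuclei came from the dorsal telencephalon, the part of the embryonic forebrain that forms the cerebral cortex, of C57BL/6J mouse embryos at E15.5, when cortical neurons are still being produced. There were 4 wildtype samples and 4 samples from embryos labelled knockout for Pantr2, a long noncoding RNA gene. The knockout is constitutive as far as the labels go, no Cre or transgene is named, and how many embryos went into a sample is not given in the sources used here. The targeted gene was not analysed here, so genotype rests on the labels.

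In the developing cortex, apical progenitors divide at the ventricle and give rise to intermediate progenitors, which move away from it and divide to make excitatory neurons. Neurog2 encodes a proneural basic helix-loop-helix transcription factor that starts this programme, with Eomes and Rnd2 among its known targets. Eomes, also called Tbr2, encodes the T-box factor that defines intermediate progenitors, and Insm1 encodes a zinc finger factor that promotes their formation. Gadd45g encodes a growth arrest and stress sensor protein. Btg2, also called Tis21, encodes an antiproliferative protein used as a mark of progenitors that divide to make neurons. Mfap4 encodes a secreted glycoprotein of the extracellular matrix.

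On GRCm38, in the GENCODE annotation, Eomes lies at chr9:118478212-118486132, Neurog2 at chr3:127633135-127635631, Insm1 at chr2:146221921-146225020, Gadd45g at chr13:51846678-51848468 and Mfap4 at chr11:61485431-61488900, all on the plus strand, and Btg2 lies on the minus strand at chr1:134075170-134079120. All 6 are protein coding. Insm1 has a single exon. Eomes shares 574 bases with the antisense gene Gm33460, and Mfap4 shares 89 bases with Mapk7 on the other strand. Whether the counting used strand is not given in the sources used here, so UMIs could be split between the partners of either pair.

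RefSeq (GRCm38.p6) gave the promoter of 4 of the 6 genes, and the 150 bases before the start of transcription are shown so that matches to the motifs of basic helix-loop-helix factors such as Neurog2 can be read in them. Insm1 and Mfap4 are named only. The stretches lie at chr9:118478039-118478188 for Eomes, chr3:127632986-127633135 for Neurog2, chr13:51846525-51846674 for Gadd45g and chr1:134079156-134079305, minus strand, for Btg2. Capitals mark every match, on either strand, to the E-box CANNTG bound by basic helix-loop-helix factors, to the E-box CAGATG, to the RBPJ-type sequence TGGGAA, to the TATA box TATAAA and to the CCAAT box. CAGATG is also a match to CANNTG.
Eomes: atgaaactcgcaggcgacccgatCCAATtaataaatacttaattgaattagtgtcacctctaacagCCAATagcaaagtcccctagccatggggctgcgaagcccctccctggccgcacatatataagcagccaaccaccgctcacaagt
Neurog2: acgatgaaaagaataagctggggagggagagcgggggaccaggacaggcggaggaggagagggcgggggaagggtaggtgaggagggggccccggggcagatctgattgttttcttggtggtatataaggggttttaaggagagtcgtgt
Gadd45g: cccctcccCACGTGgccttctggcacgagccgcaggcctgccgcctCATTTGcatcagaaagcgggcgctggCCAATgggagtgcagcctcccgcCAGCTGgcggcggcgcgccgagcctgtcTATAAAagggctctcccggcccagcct
Btg2: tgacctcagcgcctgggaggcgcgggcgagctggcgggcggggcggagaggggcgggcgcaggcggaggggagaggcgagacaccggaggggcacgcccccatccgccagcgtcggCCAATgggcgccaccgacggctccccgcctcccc

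The Gadd45g stretch held 3 E-boxes, together with a TATA box 27 bases before the start and a CCAAT box. Of its E-boxes, CACGTG lies furthest from the start, CAGCTG lies nearest to it, and the one between them reads CATTTG. The Eomes stretch held 2 CCAAT boxes, the Btg2 stretch held 1, and the Neurog2 stretch held none of the 5 motifs. Among 27025 mouse promoters cut to the same length, 47.4% held CANNTG, 8.84% CAGATG, 13.1% TGGGAA, 8.08% TATAAA and 25.3% CCAAT. The stretches also differed in base composition, from 49.3% G and C in Eomes and 58.0% in Neurog2 to 70% in Gadd45g and 80% in Btg2, against a median of 54.0% over all promoters.

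The tables held 67319 nuclei in 7 clusters numbered by the authors, 33781 of them wildtype, and 20446698 to 34083796 UMIs per sample, where a UMI stands for 1 captured transcript molecule. Levels are given as CPM, the usual depth-scaled unit, in which the UMIs of a gene are divided by all UMIs of the same nuclei. The libraries tag transcript ends and gene length was not used, so levels are compared between clusters and samples and not between genes. Median UMIs per nucleus lay between 2349 and 3122 over the clusters. A barcode was shared by 2 or more libraries in 510 cases, which involved 1023 nuclei. Xist was at 0 UMIs in wildtype sample 4 and knockout samples 1 and 4 and at 77 to 128 UMIs in the other 5. These 5 samples held 7990 to 10921 nuclei each, so their Xist counts were low. The samples were taken to differ in sex from Xist alone.

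Each cluster was checked against its markers. Cluster 4 had the highest level of all 8 measured apical progenitor markers, Pax6 among them at 64.1 CPM, and is called apical progenitor-like. It was also highest for 3 of 5 measured interneuron markers, both mural markers and all 3 oligodendrocyte lineage markers. These reached 31.7 CPM for Gad2 and 13.8 CPM for Pdgfrb, so cluster 4 may hold some other cells. Cluster 5 had the highest level of 6 of the 7 measured intermediate progenitor markers, but 5 of these 6 are genes of the present set and the other, Neurod4, reached only 2.75 CPM, so cluster 5 is called by its number. Cluster 1 had the highest level of 4 of 5 upper-layer neuron markers, and the deep-layer neuron markers were highest in cluster 2 or 3. Clusters 6 and 7 are also called by number. Blood cell transcripts were present in every cluster at a like level, with Hbb-bs between 209 CPM in cluster 7 and 263 CPM in cluster 1, and the part of such free RNA in the low levels below was not tested.

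Across clusters, 5 of the 6 genes were highest in cluster 5, 4 of these 5 by a margin seen in every sample, and Insm1 was highest in cluster 1. The clusters were built by the authors from the same counts, so these levels are a description without a test. Eomes averaged 82.5 CPM ± 16.7 in cluster 5 and 29.2 CPM ± 4.48 in cluster 4 (SD, n = 8), and 7.02 to 9.85 CPM elsewhere. In cluster 5 the wildtype samples 1 to 4 held 119, 72.5, 63.9 and 86.6 CPM of Eomes, and the knockout samples 89.0, 78.7, 73.7 and 77.0 CPM. In cluster 4 the wildtype samples held 30.2, 24.5, 31.5 and 22.2 CPM and the knockout samples 37.0, 28.4, 30.1 and 29.4 CPM. No sample of cluster 4 reached the lowest of cluster 5, and none of cluster 1 reached the lowest of cluster 4, whereas the ranges of clusters 1, 6, 3, 7 and 2 overlapped. Cluster 4 supplied 26.1% of all Eomes UMIs and cluster 5 supplied 43.7%, while they held 17.1% and 10.2% of all UMIs.

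The antisense gene Gm33460 was also higher in cluster 5 than in cluster 4 and in cluster 4 than in cluster 1. Wildtype nuclei of cluster 5 held 24.0 CPM ± 3.39 of it (SD, n = 4), against 4.69 ± 1.08 CPM for cluster 4 and 1.18 ± 0.483 CPM for cluster 1. How far the pair shares reads was not tested.

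Neurog2 had a shallower gradient, with 103 CPM in cluster 5, 74.6 CPM in cluster 4, 46.7 CPM in cluster 1 and 37.4 to 40.7 CPM in the others. In cluster 5 the wildtype samples held 144, 94.2, 77.7 and 94.8 CPM and the knockout samples 138, 98.9, 94.7 and 78.2 CPM. In cluster 4 the values were 98.2, 69.7, 55.2 and 55.5 CPM in wildtype and 98.1, 82.1, 71.9 and 65.8 CPM in knockout. The ranges of clusters 5 and 4 overlapped, with sample 1 of each genotype high in both, but cluster 5 exceeded cluster 4 within each of the 8 samples, by 1.38 times on average.

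Insm1 was present in all clusters, and the samples of its highest cluster, 1, did not overlap those of its lowest, 3. In the order of clusters 1, 5, 7, 4, 2, 6 and 3 it averaged 77.4, 69.7, 64.0, 57.6, 51.3, 45.2 and 43.5 CPM, and every neighbouring pair in that order overlapped. Cluster 1 exceeded cluster 5 in 7 of 8 samples, and cluster 5 exceeded clusters 2, 3, 4 and 6 in 8 of 8. In cluster 1 the wildtype samples held 102, 84.1, 72.5 and 69.7 CPM and the knockout samples 83.5, 64.9, 70.4 and 72.2 CPM.

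Gadd45g averaged 101 CPM in cluster 5 and 69.3 CPM in cluster 4, with cluster 5 higher in 8 of 8 samples, and 30.5 to 38.4 CPM in the other clusters. In cluster 5 the wildtype samples held 131, 86.0, 71.6 and 72.9 CPM and the knockout samples 166, 111, 94.3 and 74.1 CPM. Btg2 is the gene for which clusters 5 and 4 were closest, at 101 and 90.2 CPM, with overlapping ranges and cluster 5 higher in 6 of 8 samples. Btg2 in cluster 4 was 102, 85.6, 77.4 and 98.2 CPM in wildtype and 105, 82.0, 81.9 and 89.9 CPM in knockout samples. No sample of the remaining clusters reached these values, the next being cluster 1 at 32.3 CPM.

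Mfap4 was the most concentrated of the 6, with 48.2% of its UMIs in cluster 5. Its level there was 207 CPM, 3.67 times that of cluster 4 on average over samples, against 2.88 times for Eomes. In cluster 5 the wildtype samples held 186, 228, 225 and 129 CPM and the knockout samples 200.02, 231, 246 and 214 CPM. Cluster 4 followed at 57.4 CPM with no overlap. Cluster 7 held 43.0 CPM and cluster 1 held 24.4 CPM, and Mfap4 was higher in cluster 7 than in cluster 1 in 8 of 8 samples. Clusters 6, 3 and 2 were at 10.2 to 12.1 CPM.

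**Figure D1:**
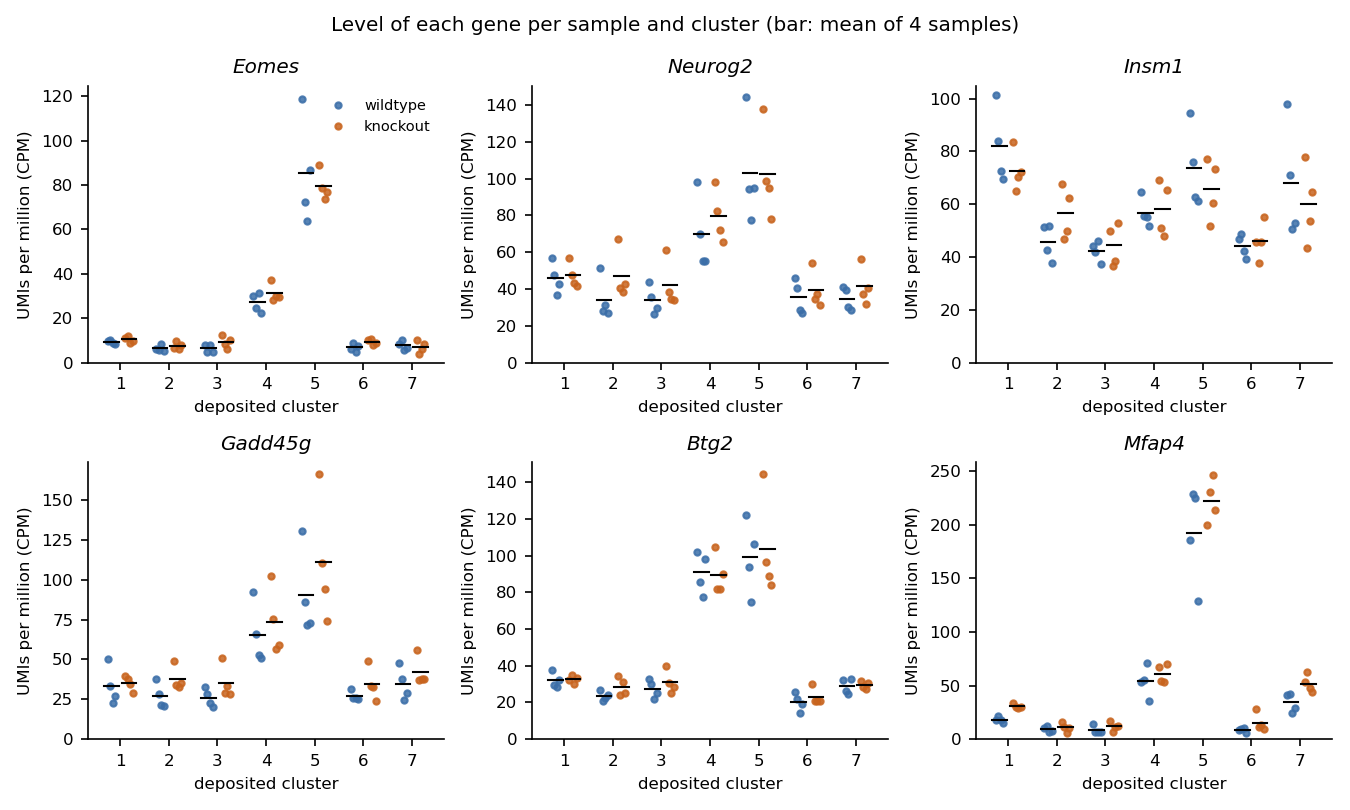
Level of each gene in CPM (vertical axis) in the 7 deposited clusters (horizontal axis). Each point is 1 sample, 4 wildtype (blue) and 4 knockout (orange), and black bars are means. Eomes and Mfap4 stand apart in cluster 5 (82.5 and 207 CPM), Btg2 is high in both clusters 4 and 5 (90.2 and 101 CPM), and Insm1 lies between 43.5 and 77.4 CPM.

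Single nuclei held few UMIs of these genes, so shares were compared at a common depth of 1400 UMIs drawn at random from each nucleus. In cluster 5, 21.7% of nuclei then held a UMI of Mfap4, 13.1% of Neurog2, 12.2% of Btg2, 11.95% of Gadd45g, 10.2% of Eomes and 9.13% of Insm1 (means of 8 samples). Without thinning these shares were 33.4%, 21.5%, 21.2%, 19.4%, 17.5% and 16.2%. In cluster 4 the thinned shares were 6.68%, 9.74%, 11.04%, 8.15%, 3.57% and 7.80% in the same order of genes. In cluster 2, a neuron cluster, Eomes was found in 0.919% of nuclei, Mfap4 in 1.49%, Btg2 in 3.76%, Gadd45g in 4.73%, Neurog2 in 5.67% and Insm1 in 7.05%. Against that level, Eomes and Mfap4 stand out most in cluster 5. The share for Insm1 ranged from 5.94% in cluster 3 to 10.3% in cluster 1, without overlap between the samples of these clusters.

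The genes also met in the same nuclei. At least 3 of the 6 were detected in 4.59% ± 1.84 (SD, n = 8) of cluster 5 nuclei, in 1.69% ± 0.598 of cluster 4 nuclei and in 0.227% or less, on average, of the nuclei of each other cluster. No gene of the set was detected in 45.5% of cluster 5 nuclei, against 72.9% to 80.3% in clusters 1, 2, 3, 6 and 7. These contrasts between clusters also follow the share of each single gene. What the single shares alone would give was not computed. Within cluster 4, 19.5% of nuclei with a Gadd45g UMI also held Btg2, against 10.3% of nuclei without Gadd45g, and the former was higher in 8 of 8 samples. In cluster 5 the same pair gave 20.8% and 11.1%, again in 8 of 8 samples. Neurog2 was found in 15.8% of cluster 4 nuclei with Gadd45g and in 9.16% of those without, also in 8 of 8 samples.

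Insm1 and Mfap4 showed no such excess with each other. Mfap4 was found in 6.50% of cluster 4 nuclei with Insm1 and in 6.68% of those without, with the former higher in 3 of 8 samples. In cluster 5 the shares were 17.5% and 22.1%, higher in 3 of 8 samples as well. Eomes and Insm1 in cluster 5 gave 9.55% of nuclei with Insm1 and 10.2% without. These shares come from nuclei thinned to 1 depth, and the 2 members of a pair share the library and the nucleus.

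**Figure D2:**
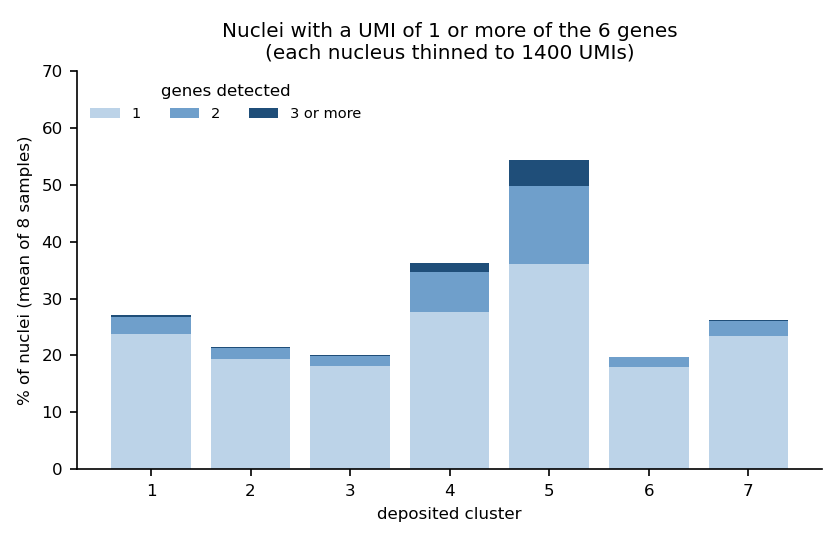
Percentage of nuclei (vertical axis, mean of 8 samples) in each deposited cluster (horizontal axis) in which 1, 2 or at least 3 of the 6 genes were detected after thinning to 1400 UMIs. Cluster 5 has the tallest bar and 4.59% of its nuclei held at least 3 of the genes, against 1.69% in cluster 4.

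Cluster 4 nuclei carry a deposited cell cycle angle, named after the tricycle method, that runs once around the cycle. By the landmarks of that method, S starts at 0.5π, G2/M starts at π and G1/G0 lies from 1.75π to 2π. The stretch from 0 to 0.5π was added to G1/G0 here. Thus 1.75π through 0 to 0.5π was read as G1/G0, 0.5π to π as S and π to 1.75π as G2/M. The angle was computed from the same nuclei, and whether these genes entered it is not given in the sources used here, so the levels are a description. All 6 genes averaged most in G1/G0 and least in G2/M. Gadd45g had the largest contrast, at 117 CPM ± 23.0 in G1/G0, 70.5 ± 20.4 in S (SD, n = 8) and 50.6 in G2/M. The G1/G0 values of 85.7 to 147 CPM did not overlap the G2/M values of 34.2 to 78.4 CPM. Btg2 showed a step between G1/G0, at 139 CPM ± 13.4 and 122 to 164 CPM, and the rest of the cycle, at 84.8 ± 11.8 in S and 82.9 ± 12.4 in G2/M. S exceeded G2/M for Btg2 in only 4 of 8 samples.

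Eomes averaged 42.0 CPM ± 16.7 in G1/G0, 31.9 ± 5.29 in S and 20.1 ± 3.83 in G2/M, and S exceeded G2/M in 8 of 8 samples with no overlap. Neurog2 followed the same order at 105 ± 35.1, 75.2 ± 15.0 and 63.1 ± 17.4 CPM, with G1/G0 above G2/M in 7 of 8 samples. Mfap4 was at 67.3 ± 17.3 CPM in G1/G0, 64.7 ± 14.9 in S and 43.3 ± 12.2 in G2/M, with S above G2/M in 8 of 8 samples. Insm1 was at 62.1 ± 11.8, 57.9 ± 7.65 and 55.4 ± 8.71 CPM. Over all samples there were 175 Eomes UMIs in G1/G0, 615 in S and 221 in G2/M.

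In 8 equal angle bins, 6 of which held at least 20 nuclei in every sample, the lowest level fell between π and 1.25π for Eomes, Neurog2, Gadd45g and Mfap4. Gadd45g went from 128 CPM between 0 and 0.25π to 46.8 CPM there, without overlap between the samples. For Insm1 the highest bin, at 76.3 CPM, lay above the lowest, at 47.0 CPM, in 8 of 8 samples. Both of these Insm1 bins lie in the G1/G0 window, so its mean there joins unlike levels. The other highest bins, that of Insm1 among them, overlapped the lowest ones. The highest bin of the means differed between wildtype and knockout for 5 of the 6 genes, and for Insm1 it was the same. In single samples the peak was unstable. The bin highest over all samples was the peak in 2 of 8 samples for Gadd45g and in at most 4 of 8, for Mfap4. A shift between genotypes can therefore not be read from these bins.

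**Figure D3:**
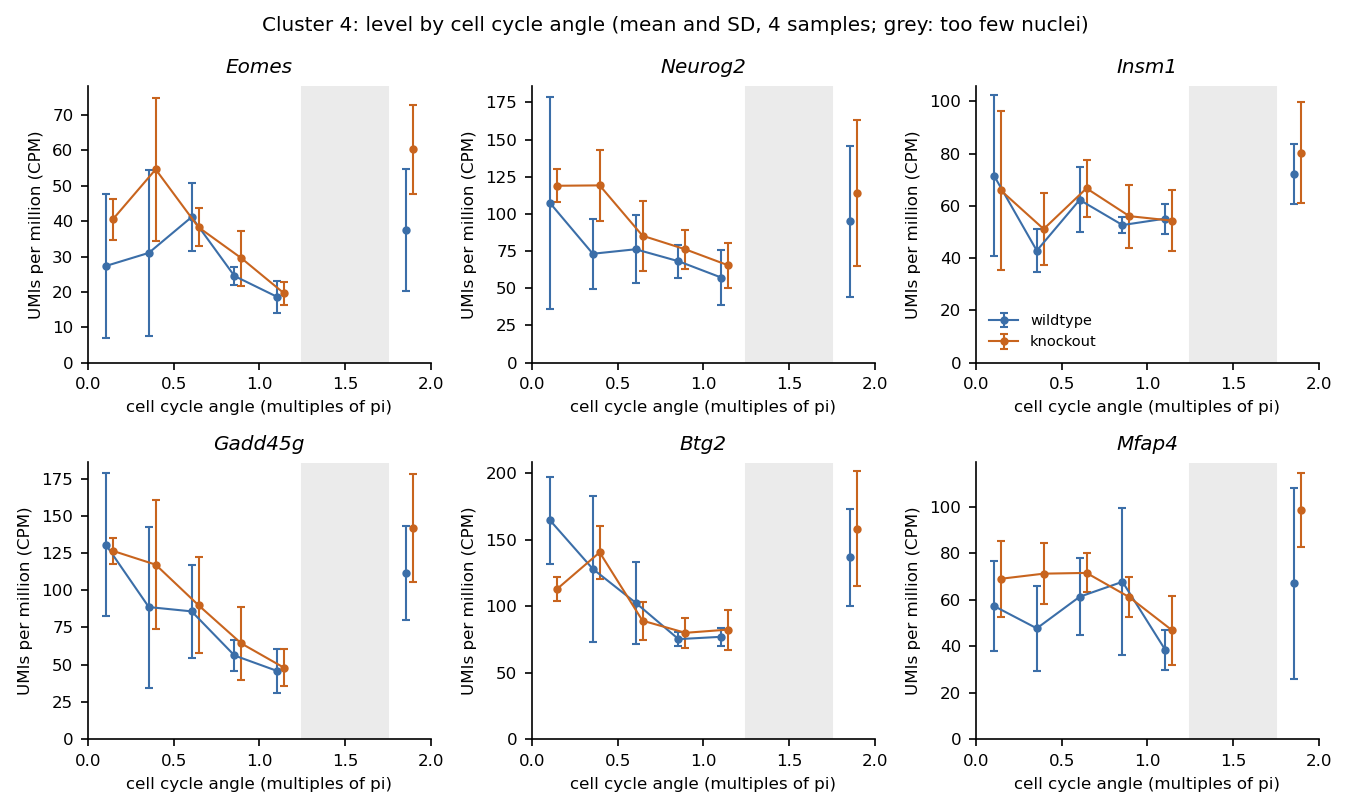
Level in cluster 4 in CPM (vertical axis) against the deposited cell cycle angle in multiples of pi (horizontal axis), as mean and SD of 4 wildtype (blue) and 4 knockout (orange) samples. The grey band marks 2 bins with under 20 nuclei in some sample, which were left out. Gadd45g drops from 128 CPM after angle 0 to 46.8 CPM past angle pi, and Insm1 is at 76.3 CPM in the bin before angle 0 and at 47.0 CPM between 0.25 and 0.5 pi.

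The genotype comparison asked whether these genes differ between Pantr2 knockout and wildtype. The 1 call was Mfap4 in cluster 1, where 1 of 6 genes passed the test and 4.84% of all 11664 genes tested did (2.54% higher in knockout). Wildtype samples 1 to 4 held 17.5, 21.95, 18.0 and 14.7 CPM, and knockout samples held 33.9, 29.8, 29.0 and 30.1 CPM. All 4 knockout samples lay above all 4 wildtype samples. Mfap4 rose by a log2 fold change of 0.79 ± 0.12 (SE; adjusted p = 0.0014 in edgeR's quasi-likelihood test with Benjamini-Hochberg adjustment), from 18.0 ± 3.00 to 30.7 ± 2.18 CPM (SD, n = 4 each). The ratio within same-numbered samples lay between 1.36 and 2.05. Mapk7, which overlaps Mfap4, was at 28.9 ± 2.99 CPM in wildtype and 25.7 ± 3.38 CPM in knockout nuclei of cluster 1, with a log2 fold change of -0.15 (edgeR adjusted p = 0.587).

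Other genes of cluster 1 differed beside it. The 5 upper-layer markers, 4 of which are highest in this cluster, summed to 6241 to 7389 CPM in wildtype and 3608 to 5355 CPM in knockout samples. The summed level of the 7 deep-layer markers was 2452 to 2930 CPM in wildtype and 3676 to 5064 CPM in knockout samples. Sox5, a deep-layer factor, went from 1377 to 2973 CPM (edgeR adjusted p = 3.16e-05). The 7 measured intermediate progenitor markers, which include the 6 genes, summed to 188 to 275 CPM in wildtype and 217 to 258 CPM in knockout samples, so these ranges overlapped. The 8 apical markers summed to 675 to 941 and 604 to 742 CPM. The part of these shifts in the Mfap4 difference was not tested.

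Outside cluster 1, no difference in Mfap4 passed the test. In clusters 2 and 4 the knockout sample was the higher in 2 of 4 same-numbered pairs, and at S angles the means were 64.9 CPM in wildtype and 64.6 CPM in knockout. Over all nuclei the wildtype samples held 42.7, 42.2, 33.6 and 26.3 CPM and the knockout samples 57.8, 54.5, 48.4 and 43.8 CPM, with no overlap (log2 fold change 0.51 ± 0.14, adjusted p = 0.0649 by edgeR). In cluster 7 the values were 41.1, 42.4, 24.4 and 29.0 CPM against 53.1, 62.9, 47.7 and 43.6 CPM, again without overlap (log2 fold change 0.66 ± 0.17, adjusted p = 0.0979 by edgeR). How many of all genes had groups without overlap was not counted. Among the intermediate progenitor and newborn neuron genes read below, it was 10 of 27 tested over all nuclei and 8 of 25 in cluster 1. It was 5 of 24 in cluster 7 and 6 of 20 in the G1/G0 window of cluster 4. These genes were chosen with earlier results of these data known and include called ones, so they are no background for Mfap4. Its missing overlap is therefore a description only. With the replicate number as a block the edgeR adjusted p for Mfap4 became 0.00457 over all nuclei and 0.00648 in cluster 7, and without knockout sample 4 it was 0.0484 over all nuclei. With sex from Xist as a covariate it was 0.0346 over all nuclei (edgeR, log2 fold change 0.59), an alternative added after the data were seen. Cluster 5, where Mfap4 is most abundant, gave a log2 fold change of 0.25 ± 0.15 with overlapping groups (edgeR adjusted p = 0.644). Sums over all nuclei also follow the share of each cluster. Cluster 5, with 48.2% of Mfap4 UMIs, held 8.12% to 13.9% of the nuclei of wildtype samples and 8.42% to 14.5% of those of knockout samples, and cluster 4 held 9.69% to 20.2% and 13.1% to 25.5%. The part of these shares in the difference over all nuclei was not tested.

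None of the 6 genes passed the test (edgeR, adjusted p under 0.05) over all nuclei or in clusters 2 to 7. The share of all genes called was 5.26% over all nuclei, and for clusters 2 to 7 in turn it was 9.11%, 3.36%, 4.29%, 1.77%, 0.779% and 1.03%. At an unadjusted p under 0.05 there were 1, 2, 2, 0, 0, 2 and 1 of the 6 genes in these 7 fits, where 19.1%, 21.0%, 15.3%, 15.98%, 9.95%, 9.91% and 9.68% of all genes were, so the members' counts are near this background. DESeq2 called Mfap4 over all nuclei (adjusted p = 0.0113) and in cluster 1, and no other of the 6 genes in any fit. The median log2 fold change of the 6 was 0.25 over all nuclei and 0.12 in cluster 1, against 0.001 and -0.00049 for all genes tested in these fits.

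In cluster 4 the log2 fold changes were 0.24 ± 0.14 for Eomes, 0.21 ± 0.18 for Neurog2, 0.06 ± 0.13 for Insm1, 0.19 ± 0.21 for Gadd45g, 0.0042 ± 0.11 for Btg2 and 0.21 ± 0.18 for Mfap4, and the groups overlapped for every one. In cluster 5 they were -0.09 ± 0.15, 0.02 ± 0.18, -0.16 ± 0.15, 0.33 ± 0.22, 0.08 ± 0.16 and 0.25 ± 0.15 in the same order, also with overlap. The difference of the genotype effect between clusters 5 and 4 was tested in its own fit, in which 0 of the 6 genes and 0.655% of all genes were called by edgeR (0 of 6 and 9.22% at an unadjusted p under 0.05, and DESeq2 was not run for it). It was largest for Eomes, at -0.32 ± 0.17 (edgeR adjusted p = 0.612).

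Cluster 4 differed along the cell cycle angle, with 43.7% to 50.1% of wildtype nuclei and 54.3% to 57.3% of knockout nuclei at an S angle, so the comparison was repeated within windows. No gene of the set was called by edgeR or DESeq2 in G1/G0 (3.03% of all genes called by edgeR), S (2.81%) or G2/M (2.93%), and at an unadjusted p under 0.05 there was 1, 0 and 0 of 6, against 12.6%, 13.4% and 13.7% of all genes. That 1 was Mfap4 in G1/G0, at 35.6, 66.4, 62.6 and 60.0 CPM in wildtype and 72.3, 78.3, 66.8 and 96.6 CPM in knockout samples. These groups did not overlap, and the edgeR adjusted p was 0.265. The share of cluster 4 nuclei with a UMI of each gene gave no call either. Neurog2 was the furthest apart, at 8.74% ± 2.42 in wildtype and 10.7% ± 1.87 in knockout (SD, n = 4 each; exact two-sided permutation test p = 0.229, adjusted over the 6 genes 0.743, smallest possible p 0.0286). A single gene at that smallest p would not pass after adjustment over the 6 genes, so the missing call decides nothing.

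**Figure D4:**
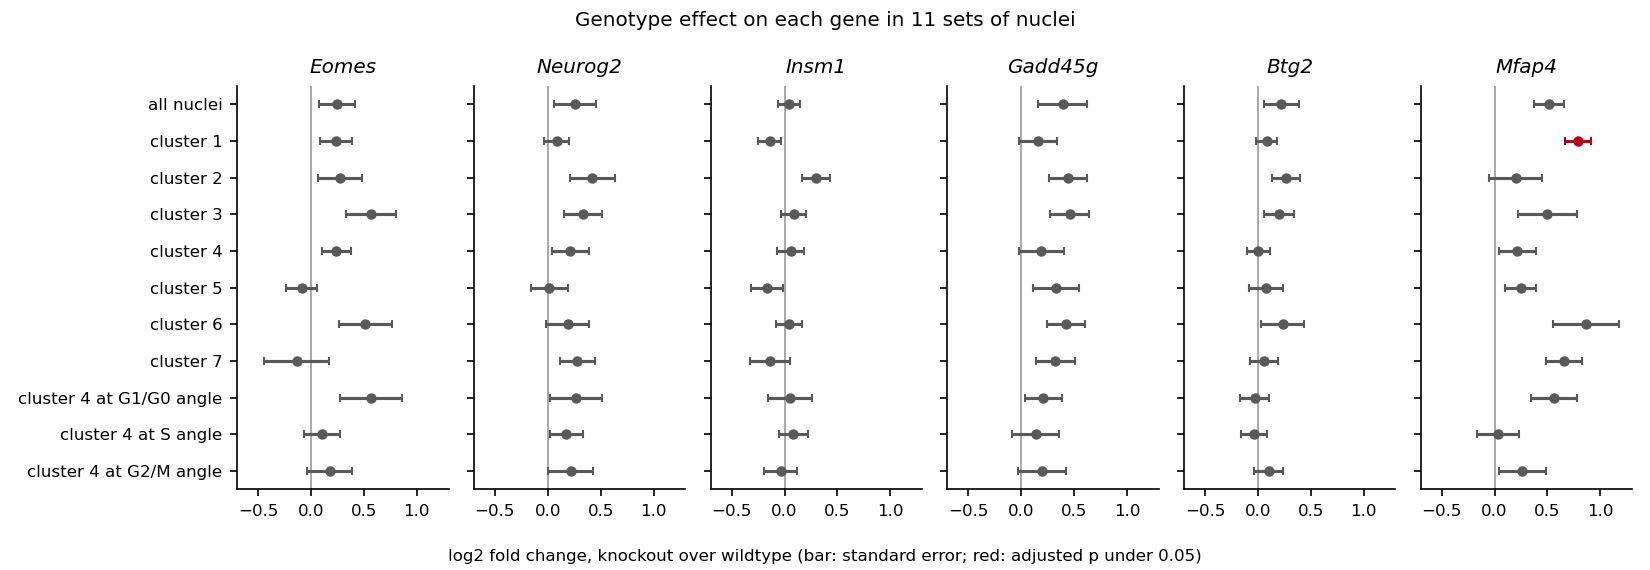
Log2 fold change of knockout over wildtype (horizontal axis, bars are standard errors) for each gene in 11 sets of nuclei (vertical axis), from 4 samples per genotype. The single call, Mfap4 in cluster 1 at 0.79, is in red, and 58 of the 66 values lie above 0, against 49.3% to 51.6% of all genes by set. The sets overlap, since all nuclei hold the clusters and cluster 4 holds its 3 angle windows.

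The libraries with replicate number 1 were high for some of these genes in both genotypes. Neurog2 and Gadd45g were highest in sample 1 of their genotype in all 14 sets of cluster and genotype, Btg2 in 12, Insm1 in 9, and Eomes and Mfap4 in 5 each. This included neuron clusters: in cluster 3 Neurog2 was at 43.6, 35.6, 26.6 and 29.5 CPM in wildtype and 61.4, 38.3, 34.5 and 33.8 CPM in knockout samples. With the replicate number as a block, edgeR called 1344 genes over all nuclei in place of 732. Among the 6 genes it then called Neurog2 (log2 fold change 0.27, adjusted p = 0.0203) and Gadd45g (0.40, adjusted p = 0.00478) over all nuclei, beside Mfap4. In clusters 4 and 5 the blocked fit called none of the 6. Cluster 4 supplied 25.3% of Neurog2 UMIs and 27.1% of Gadd45g UMIs, with 17.1% of all UMIs. It held 20.2%, 13.7%, 9.69% and 12.9% of nuclei in wildtype samples 1 to 4 and 25.5%, 19.6%, 15.2% and 13.1% in knockout samples. The cluster 5 share rose in some pairs and fell in others. The part of these shares in the calls over all nuclei was not tested. In cluster 2 the blocked edgeR fit called Neurog2 (adjusted p = 0.00929) and Gadd45g (adjusted p = 0.0134), and in cluster 3 Gadd45g (adjusted p = 0.0369). Leaving out wildtype sample 1, without the block, also put both over the threshold in cluster 2 (edgeR adjusted p = 0.0323 for Neurog2 and 0.0234 for Gadd45g).

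Within same-numbered samples the knockout to wildtype ratio of Gadd45g over all nuclei was 1.28, 1.28, 1.47 and 1.21, and that of Neurog2 was 1.14, 1.18, 1.34 and 1.12. Over all nuclei Gadd45g was at 60.3, 40.7, 29.8 and 32.3 CPM in wildtype and 76.9, 52.1, 43.8 and 38.9 CPM in knockout samples, and the groups overlapped. The log2 fold changes without the block were 0.39 ± 0.23 (edgeR adjusted p = 0.407) for Gadd45g and 0.26 ± 0.20 (edgeR adjusted p = 0.531) for Neurog2.

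**Figure D5:**
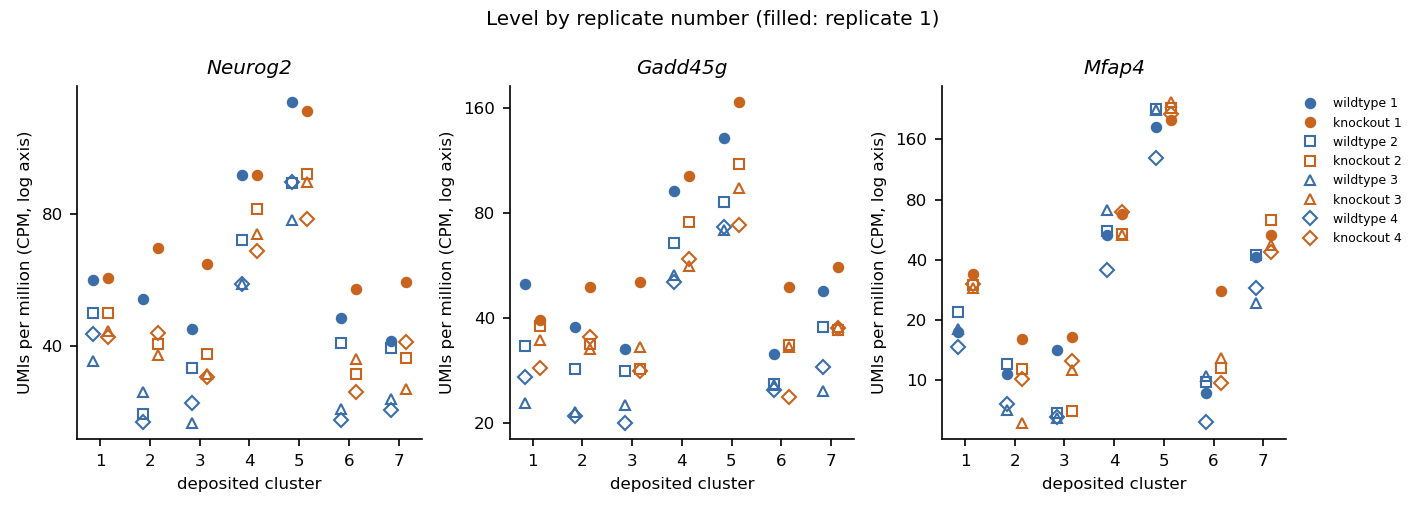
Level in CPM (vertical log axis) of Neurog2, Gadd45g and Mfap4 in each deposited cluster (horizontal axis), with 1 symbol per replicate number and filled symbols for replicate 1. Replicate 1 is the highest of its genotype for Neurog2 and Gadd45g in all 14 sets, and for Mfap4 in 5 of 14.

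Other genes of the pathway were read from the same fits. Of 28 intermediate progenitor and newborn neuron genes outside the set, 27 could be tested over all nuclei, where 5 were called higher and 1 lower in knockout (all genes: 1.67% and 3.58%) and the median log2 fold change was 0.18. In cluster 4 it was 3 higher and 1 lower of 25 (all genes: 1.17% and 3.12%), with a median of 0.25. In cluster 5 it was 2 higher and 0 lower of 25 (all genes: 0.868% and 0.906%), with a median of 0.13. Rnd2, a small GTPase that guides the migration of newborn neurons and a known Neurog2 target, was called higher over all nuclei, in clusters 1, 2, 3, 4, 6 and 7 and in all 3 angle windows. In cluster 4 Rnd2 rose from 38.0 ± 2.85 to 65.1 ± 3.01 CPM (log2 fold change 0.81 ± 0.08, edgeR adjusted p = 0.00018). Leaving out single samples ended the Rnd2 call in cluster 6 (4 of 8 samples, edgeR adjusted p up to 0.0837), in cluster 7 (4 of 8, up to 0.135) and at G1/G0 angles (wildtype sample 1 alone, 0.0611).

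Neurod6, a basic helix-loop-helix factor of cortical neurons, was called higher over all nuclei, in clusters 1 to 5 and 7 and in the 3 windows, and rose in cluster 5 from 347 ± 18.7 to 446 ± 9.41 CPM (edgeR adjusted p = 0.007). Rcor2, a corepressor subunit, rose in cluster 4 from 52.9 ± 5.64 to 78.1 ± 6.61 CPM (edgeR adjusted p = 0.00399). Cdkn1c, an inhibitor of the cell cycle, rose in cluster 5 from 39.3 ± 3.50 to 57.0 ± 3.25 CPM (edgeR adjusted p = 0.00795) and was also called in cluster 1. Nhlh1 and Nhlh2, basic helix-loop-helix factors of newborn neurons, were called higher over all nuclei at low levels, Nhlh1 from 2.43 to 4.25 CPM (edgeR adjusted p = 0.0271). Their calls ended without any 1 of 6 samples for Nhlh1 and of 7 samples for Nhlh2 (edgeR adjusted p up to 0.0902 and 0.113). For Neurod6 the call over all nuclei ended without wildtype sample 4 or knockout sample 2 or 3 (edgeR adjusted p up to 0.0704), in cluster 3 without any 1 of 5 samples (up to 0.0663), in cluster 7 without wildtype sample 4 (0.0651) and at G1/G0 angles without wildtype sample 1 (0.0816). Cdkn1c in cluster 1 lost its call without any 1 of 6 samples (up to 0.138).

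Chd7, a chromatin remodeller, was called higher in cluster 1, Neurod2 in cluster 2, and Elavl4, an RNA-binding protein of neurons, in the G1/G0 and G2/M windows. These calls ended for Neurod2 without wildtype sample 1 or knockout sample 1 or 2 (edgeR adjusted p up to 0.0696), and for Elavl4 without any 1 of 6 and of 7 samples (up to 0.12 and 0.144). Kif26b, a kinesin family member, was called in both directions: it fell in cluster 2 from 125 ± 59.0 to 11.6 ± 6.47 CPM and in cluster 7, and rose in the G2/M window from 64.2 ± 8.84 to 104 ± 15.7 CPM (edgeR adjusted p = 0.0116), a call that ended without wildtype sample 2 (0.0531). Slco1c1, a thyroid hormone transporter, fell in cluster 4 from 71.1 ± 15.1 to 19.5 ± 9.35 CPM (edgeR adjusted p = 0.000845). It is the 1 gene of the list called lower over all nuclei, where the call ended without wildtype sample 4 or knockout sample 2 or 3 (edgeR adjusted p up to 0.0798).

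The Notch pathway holds progenitors back from neurogenesis. Of 11 genes of that pathway and of apical progenitors, 2 were called higher over all nuclei, Hey1 and Rbpj, and 0 lower. Of all genes tested, 1.67% were called higher and 3.58% lower there. In cluster 4 only Jag1 of the 11 was called, lower in knockout (all genes: 3.12% lower). Jag1, a Notch ligand, fell there from 49.2 ± 7.11 to 23.6 ± 1.06 CPM (log2 fold change -1.03 ± 0.12, edgeR adjusted p = 0.000389). Hey1, a Notch target, went from 3.302 to 5.26 CPM, and Rbpj, the nuclear mediator of Notch, from 87.6 to 101 CPM over all nuclei. Those calls ended without any 1 of 4 samples for Hey1 (edgeR adjusted p up to 0.0705) and of 7 for Rbpj (up to 0.143). The summed apical markers of cluster 4 were 1948 to 2426 CPM in wildtype and 1549 to 1618 CPM in knockout samples. There the 2 mural markers summed to 25.4 to 27.0 CPM in wildtype and 8.26 to 13.1 CPM in knockout samples. The 3 oligodendrocyte lineage markers summed to 9.51 to 11.8 and 1.32 to 2.90 CPM. The 5 interneuron markers summed to 46.2 to 90.1 and 19.2 to 61.6 CPM, with overlap. The part of these sums in the differences above was not tested. Of 5 relatives of Gadd45g and Btg2, none was called by edgeR in any of the 11 fits (all genes: 0.779% to 9.11%). At an unadjusted edgeR p under 0.05 it was 1 of 5 over all nuclei. In cluster 4 it was 2 of the 4 tested, and at S angles 1 of 4. Of all genes, 19.1%, 15.98% and 13.4% were past it in these fits. DESeq2 counts were not made for these lists.

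Genes most like each member were found by Pearson's r of log2(CPM + 1) over 14 points, the 8 angle bins of cluster 4 and the other 6 clusters, with wildtype UMIs pooled, among 3656 genes that reached 100 CPM at some point. The points share libraries and depth, so r is a description. Neurog2 and Eomes had Lama2 as their nearest gene (r = 0.97 and 0.94; knockout 0.88 and 0.90), followed for Neurog2 by 5031425E22Rik (0.95) and Adcyap1r1 (0.94) and for Eomes by Mfap2 and Vps37b (0.93 each). In knockout these 4 values were 0.52, 0.96, 0.90 and 0.86. Gadd45g was nearest to Sdf2 (0.96), Adcyap1r1 (0.93) and 5031425E22Rik (0.92), and in knockout these were 0.74, 0.91 and 0.20. Over the 12 points with at least 20 nuclei in every sample, the knockout r of 5031425E22Rik was 0.88 with Gadd45g and 0.90 with Neurog2, and that of Sdf2 with Gadd45g was 0.52. Btg2 was nearest to Gm29521, Sufu and Myo6 (0.97 each; knockout 0.95, 0.87 and 0.91), and Mfap4 to Gtf2f2 (0.94), Ints8 and Vps37b (0.93 each; knockout 0.92, 0.90 and 0.88 for these 3). Insm1 had lower values throughout, with R3hdm2 at 0.87 and Ppp1r10 and Snrpb at 0.86, and in knockout these were 0.54, 0.70 and 0.55. These 3 genes were highest in the bin from 1.25π to 1.5π, which held only 52 nuclei. Over the 12 points their r with Insm1 was 0.83, 0.79 and 0.81 in wildtype and 0.55, 0.56 and 0.67 in knockout.

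Among the 6 genes themselves, Neurog2 had r = 0.91 with Eomes, 0.91 with Gadd45g and 0.90 with Btg2 in wildtype, and 0.96, 0.93 and 0.98 in knockout. Insm1 had its highest r with Mfap4, 0.58 in wildtype, and its lowest with Gadd45g, 0.15 in wildtype and 0.76 in knockout. Over the 12 points with at least 20 nuclei in every sample the Insm1 and Gadd45g values were 0.46 and 0.59, so this last difference rests on the thinly filled bins.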

How the data were processed

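Single nuclei of 8 samples were counted with a 3′ droplet kit, per the labels' protocols. The authors deposited UMI counts per gene and nucleus (whole numbers, not normalised), with a cluster number, doublet scores and a tricycle angle in radians for each nucleus, per the file headers. The doublet scores were deposited as scores without a unit, and the highest hybrid score was 0.5 or less in every sample, so no further doublet caller was run. The submitters' processing notes name kallisto, bustools and mm10, without versions. The filters on nuclei are not given in the sources used here. Deposited gene positions differ from GRCm38 and were not used.

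For each sample, UMIs were added up over all nuclei, each cluster and each angle window. The genotypes were compared in edgeR 4.0.16 (R 4.3.3) by its quasi-likelihood test, with TMM factors, filterByExpr and no term but genotype. Benjamini-Hochberg adjustment ran over all genes of a fit with a threshold of 0.05, and DESeq2 1.42.0 was an alternative. Printed CPM are without TMM factors. On simulated counts in which 200 genes had a true log2 difference of 1, the test recovered 96.5% over all nuclei (13927 genes), and, for clusters 1 to 7 in turn, 89.0% (11664), 85.0% (11538), 86.5% (11890), 94.0% (11935), 90.0% (10595), 85.5% (10522) and 84.0% (10548). It recovered 75.5% at G1/G0 (6860), 85.0% at S (10815) and 82.0% at G2/M angles (9871), and 76.0% for the difference between clusters 5 and 4 (11908). Each fit also gave 5 to 11 false calls. The largest log2 fold change of the 6 genes in any fit was 0.87, and most were far smaller. These figures therefore do not tell how often differences of the size seen here would be called. Shares were compared after thinning to 1400 UMIs. Near-identical transcripts were searched with blastn 2.17.0 at 95% identity over 100 bases, which found only Gm33460, over 119 bases of Eomes.

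Same-numbered samples of the genotypes deviated together across genes (r = 0.397, 0.185, 0.192 and 0.179, each above the pairing threshold of 0.1; the 12 other pairs lay between -0.355 and 0.286), and the pairing comes from the data, since the labels do not say what a number shares. Nothing says that samples are separate animals, so p-values measure the spread between samples. The nuclei tables give 1 library date for all samples, so no batch could be compared. The named genes are the 6 members, the 3 genes most like each, and pathway genes called in a fit, with Mapk7, Gm33460, haemoglobin and the cell type markers named beside results. The members, lists and rules were chosen with earlier results of these data known. The result for 1 marker gene is not reported here.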

Additional observations from a re-analysis of the deposited data

Results flagged for a closer look

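In 132 groups of 4 samples (6 genes, 11 sets of nuclei, 2 genotypes), a sample was picked out when its gap to the nearest other sample exceeded 0.829 of the range of the group, which chance alone gives in about 1 of 20 groups. This held for 9 groups. In 7 of them the far sample was replicate 1 of its genotype, and it was the highest. Knockout sample 1 stood out in cluster 2 for Neurog2 (66.9 CPM, others 38.1 to 42.8) and Gadd45g (48.9 CPM, others 32.7 to 35.3), in cluster 3 for Neurog2 (61.4 CPM, others 33.8 to 38.3), in cluster 6 for Btg2 (30.2 CPM, others 20.5 to 20.7) and in cluster 7 for Gadd45g (56.0 CPM, others 37.0 to 37.8). Wildtype sample 1 stood out in cluster 3 for Mfap4 (14.2 CPM, others 6.47 to 6.88) and in cluster 6 for Gadd45g (31.6 CPM, others 24.9 to 25.8). In the G1/G0 window of cluster 4, knockout sample 3 was low for Insm1 (46.4 CPM, others 68.1 to 70.1) and knockout sample 4 was low for Btg2 (126 CPM, others 140 to 142).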

How the results depend on the processing

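The alternatives were other scaling factors, no filter on low counts, each sample left out, the replicate block, DESeq2, nuclei without the tenth with the highest doublet score and, added after the data were seen, sex from Xist as a covariate. Over 72 results for the 6 genes these gave 984 values, of which 923 kept direction and side of the threshold, 12 passed it where the reported value had not, and 49 took the other sign. None lost a call: Mfap4 in cluster 1 kept its call under all 14 alternatives (log2 fold change 0.68 to 0.90, adjusted p at most 0.00645). Of 49 called pathway results, 29 kept their call throughout, 20 lost it under at least 1 alternative and 0 turned. Shares of cluster 4 nuclei gave no call under any alternative run, but the test leaves a single gene no room for one. Without wildtype sample 1, Neurog2 reached the smallest possible p (exact permutation test p = 0.0286, adjusted 0.171). With the replicate block the smallest possible p is 0.125. Across clusters, 5 genes stayed highest in cluster 5 after thinning.

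The replicate block, whose pairing rests on the data, gave 1344 called genes over all nuclei, 652 in cluster 3, 253 in cluster 6 and 255 in cluster 7, and among the 6 genes it changed no call beyond those printed above. DESeq2 gave 1217 over all nuclei. With a sample left out, the called genes numbered 263 to 994 over all nuclei, 335 to 647 in cluster 1, 192 to 438 in cluster 3, 316 to 534 in cluster 4, 101 to 189 in cluster 5, 51 to 148 in cluster 6 and 63 to 142 in cluster 7. They numbered 103 to 237, 163 to 350 and 181 to 278 in the G1/G0, S and G2/M windows, and 21 to 85 for the difference between clusters 5 and 4. These counts were lowest without knockout sample 3 over all nuclei and in clusters 1, 3 and 6, without wildtype sample 1 in cluster 4 and its windows, without wildtype sample 4 in cluster 5, without knockout sample 2 in cluster 7, and without wildtype sample 1 or 4 for the difference between clusters. The cause was not tested.

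Signs turned only for log2 fold changes of at most 0.20 in size, none of them called. With 1 sample left out, Insm1 ran from -0.022 to 0.11 over all nuclei, -0.0097 to 0.17 in cluster 3, -0.043 to 0.14 in cluster 4, -0.034 to 0.15 in cluster 6, -0.27 to 0.048 in cluster 7, and -0.037 to 0.17, -0.049 to 0.16 and -0.13 to 0.062 in the G1/G0, S and G2/M windows. Btg2 ran from -0.086 to 0.064 in cluster 4, -0.11 to 0.18 in cluster 5, -0.0093 to 0.13 in cluster 7, -0.078 to 0.057, -0.15 to 0.033 and -0.00098 to 0.24 in the windows, and -0.0032 to 0.17 for the difference between clusters. Gadd45g ran from -0.018 to 0.41 in cluster 4, -0.093 to 0.32 at S and -0.041 to 0.49 at G2/M angles. Neurog2 ran from -0.14 to 0.22 in cluster 5 and -0.0085 to 0.34 in cluster 6. Eomes ran from -0.19 to 0.11 in cluster 5, -0.35 to 0.094 in cluster 7 and -0.054 to 0.20 at S angles. Mfap4 ran from -0.18 to 0.21 at S angles and -0.053 to 0.17 for the difference between clusters. The Xist covariate turned Insm1 (-0.0029) and Btg2 (-0.053) in cluster 4. Leaving out high doublet scores turned Btg2 in cluster 4 (-0.0055) and its G1/G0 window (0.024), where no filter on low counts gave 0.0011.

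Depth limits single genes in small sets: over all 8 samples Eomes had 124 UMIs in cluster 7, 133 in cluster 6 and 175 at G1/G0 angles.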
